A study of Rattus norvegicus with 6 samples.

Results

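The genes described here encode enzymes that turn arachidonic acid into leukotrienes and prostaglandins. They are Alox5, Alox5ap, Lta4h, Ltc4s, Alox15, Ptgs1, Ptgs2, Ptges, Ptgds and Ptgis. They were taken by name, with earlier results of these data known, and all are described whatever their values. Every probe set annotated to 1 of these genes and to no other was kept, which gave 12 probe sets for the 10 genes, out of 31042 probe sets and 14217 named genes on the array. A probe set is a group of short probes that reports 1 transcript. Ptgs1 and Ptges had 2 each. The brightest over all arrays leads the account of a gene. RNA came from whole lung of 6 rats of the inbred Lewis strain, with 1 array per animal. The lung_silica group held 3 rats that inhaled crystalline silica dust (Min-U-Sil 5) at 6.2 mg/m3 for 6 hours a day on 5 days a week over 6 weeks, and the lung_control group held 3 rats that inhaled filtered air. The sources used here state neither the animals' age and sex nor how long after the last exposure lungs were taken.

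Free arachidonic acid, released from membranes by phospholipases A2, enters separate routes. In the leukotriene route, 5-lipoxygenase (Alox5), helped by its activating protein FLAP (Alox5ap), makes leukotriene A4. Leukotriene A4 hydrolase (Lta4h) turns this into the neutrophil attractant leukotriene B4, and leukotriene C4 synthase (Ltc4s) turns it into the cysteinyl leukotrienes that constrict airways and make vessels leak. In the prostanoid route, the cyclooxygenases COX-1 (Ptgs1) and COX-2 (Ptgs2) make prostaglandin H2, from which terminal synthases make prostaglandin E2 (Ptges), D2 (Ptgds), prostacyclin (Ptgis) and thromboxane. Alveolar macrophages, neutrophils and mast cells make leukotrienes in lung, and endothelium makes prostacyclin.

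None of the 12 probe sets passed the threshold, a limma adjusted p under 0.05 over all probe sets, where 1.08% of all 31042 probe sets did. By leading probe set this is 0 of 10 genes, against 1.67% of all named genes. At an unadjusted p under 0.05 there were 2 of the 10 genes, Ptgs1 and Alox15, against 19.9% of named genes. These were also the 2 genes whose silica arrays all lay apart from the control arrays, a separation that 31.4% of named genes showed. The leading probe sets were estimated higher in silica in 6 genes and lower in 4. Their median log2 fold change was 0.20, against 0.02 over all named genes. Log2 fold changes are silica minus control on the log2(signal + 16) scale, given ± SE, and signals are linear and in arbitrary units, shown as group mean ± SD (n = 3 lungs each). In whole lung, fewer cells of a type and less RNA per cell cannot be told apart.

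**Figure D1:**
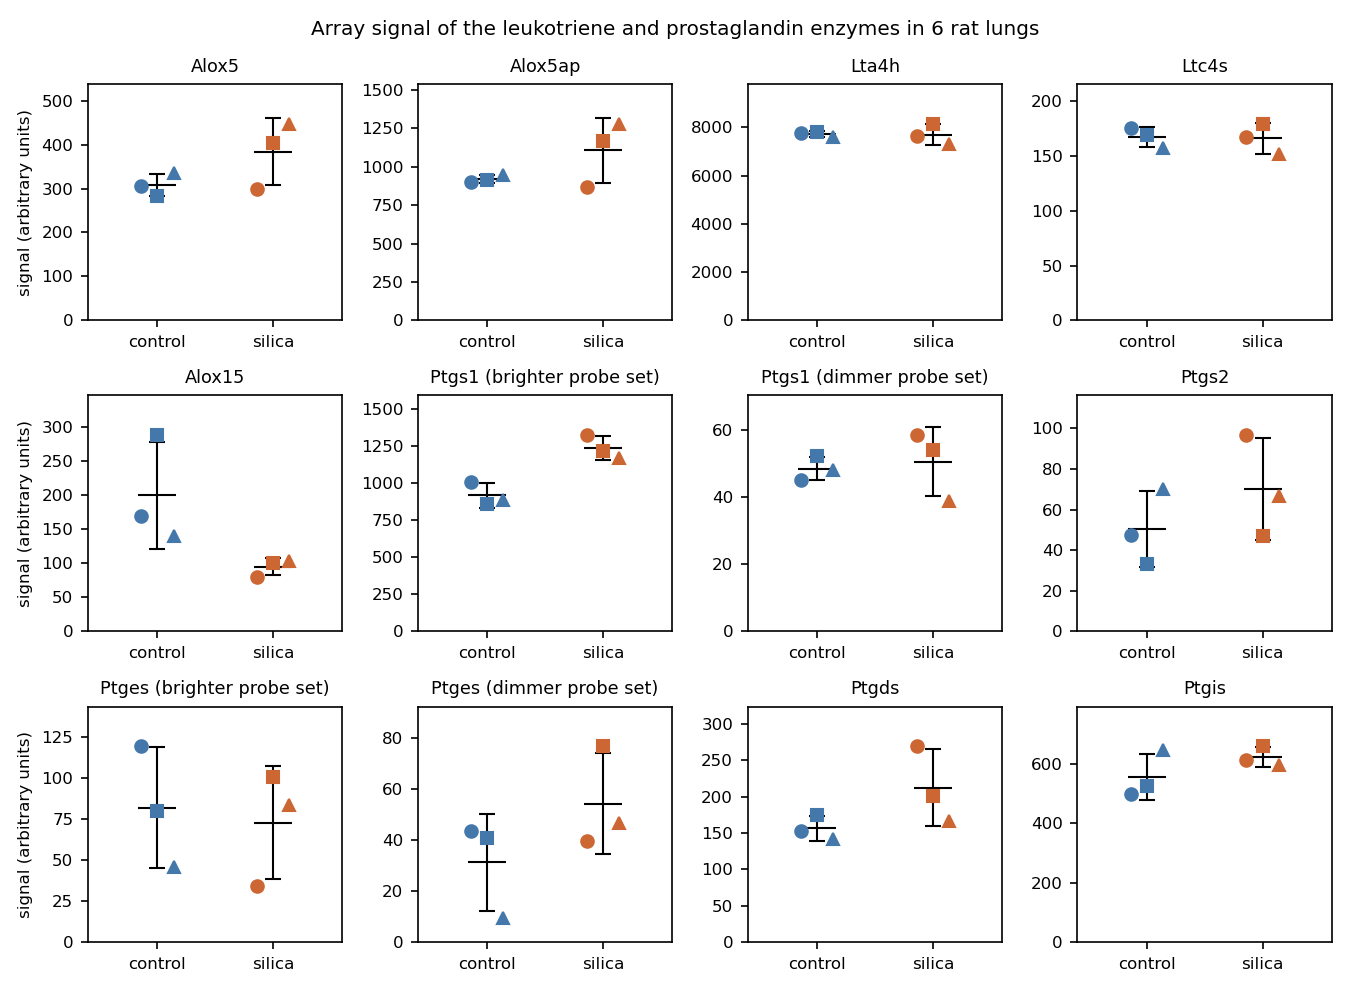
Signal of the 12 probe sets in each of the 6 arrays (vertical axes from 0, arbitrary units), with circles, squares and triangles for replicates 1, 2 and 3 and black bars for the group mean ± SD (n = 3). The control and silica arrays do not overlap in Alox15 and in the brighter Ptgs1 probe set, and overlap in the other 10.

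The first enzyme of the leukotriene route and its helper had the same profile within the silica group. Alox5 had signals of 306, 284 and 335 in the control lungs and of 299, 404 and 447 in the silica lungs. Silica replicates 2 and 3 lay above every control, while silica replicate 1 lay among them. The group means were 308 ± 25.6 and 384 ± 76.1, with a log2 fold change of 0.29 ± 0.17 (adjusted p = 0.435; 95% interval from -0.12 to 0.69). Alox5ap, whose protein presents arachidonic acid to 5-lipoxygenase at the nuclear membrane, had 898, 913 and 949 in control and 871, 1168 and 1279 in silica. Its silica replicate 1 was the lowest of all 6 arrays and the other 2 silica arrays were the highest. Its log2 fold change was 0.24 ± 0.16 (adjusted p = 0.484; 95% interval from -0.14 to 0.63). With 1 array left out the Alox5 estimate ran from 0.17 without silica replicate 3 to 0.45 without silica replicate 1, and that of Alox5ap from 0.13 to 0.40 without the same arrays, and neither gene passed. Silica replicate 1 also had the highest 3-prime to 5-prime ratio of the control transcripts beta-actin and GAPDH, a sign of RNA quality, at 1.675 on the log2 scale. Silica replicate 2 had the next highest at 1.496 and lay above every control in both genes, silica replicate 3 had 1.15, and the controls had 1.23, 1.203 and 0.996. The ratio's part in these values was not tested: it was mostly higher in silica, so a fit with it as a covariate (estimates of 0.56 and 0.49, adjusted p of 0.364 and 0.414) cannot fully tell it apart from the group.

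The enzymes that share out leukotriene A4 had nearly equal group means. Lta4h, the hydrolase that makes leukotriene B4, had 7772, 7812 and 7604 in control and 7653, 8152 and 7313 in silica. Both extremes lay in the silica group, and the control arrays lay between them. Its log2 fold change was -0.0057 ± 0.094 (adjusted p = 0.984), with a 95% interval from -0.23 to 0.22. Ltc4s, which joins glutathione to leukotriene A4, had 176, 169 and 157 in control and 167, 179 and 152 in silica. The groups overlapped fully, and the log2 fold change was -0.011 ± 0.11 (95% interval from -0.27 to 0.25, adjusted p = 0.973). The intervals of these 2 genes were the narrowest of the 10 leading probe sets and reached no further than 0.27 from 0 in either direction.

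Alox15, the 12/15-lipoxygenase, had the largest difference of the 10 genes by leading probe set. This enzyme oxidises arachidonic and linoleic acid, also within membranes, and is known from reticulocytes, eosinophils and some resident macrophages. Its signals were 170, 288 and 141 in control and 80.3, 101 and 104 in silica. All 3 silica arrays lay below all 3 control arrays, and control replicate 2 stood well above the other 2 controls. The means were 199.7 ± 78.2 and 94.9 ± 12.8, a ratio of silica to control of 0.475, with a log2 fold change of -0.91 ± 0.26 (adjusted p = 0.169; 95% interval from -1.54 to -0.28). The estimate stayed below 0 in each of 19 alternatives, between -1.11 and -0.63, and passed the threshold in none of them, with a lowest adjusted p of 0.0529. The -0.63 was the value without control replicate 2. Alternatives that change only the spread estimate, the threshold or the replicate term cannot move the estimate, nor can averaging the single Alox15 probe set.

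The 3 named genes nearest to Alox15 over the 6 arrays included 2 genes of red cells. Likeness was the root mean square distance between 2 probe sets' deviations from their own mean, over leading probe sets with a mean log2 value of at least 6, and it follows mostly the group difference and control replicate 2. The nearest were C7h12orf75 (0.242 log2 units), the alpha globin gene Hba-a3 (0.244) and Alas2 (0.251), which encodes the first enzyme of heme synthesis in red cell precursors. Alas2 had 1482, 2714 and 1403 in control and 1292, 1323 and 1204 in silica, so control replicate 2 was the highest here too. Hba-a3 had 4865, 6841 and 4429 in control and 3752, 3660 and 3391 in silica. A list of 16 erythroid genes, chosen after these neighbours were seen, had 10 measured members. The 10 include Hba-a3 and Alas2, whose likeness to Alox15 fixes their direction. Of the other 8, 7 were estimated lower in silica, against 46.3% of all named genes, and 3 had groups apart, against 31.4%. Genes of 1 cell type can rise and fall together, so the 8 are not independent and these shares are no test. Among the 3, Epb42 had low signals, 58.7, 48.7 and 24.6 in control and 20.7, 4.6 and 18 in silica. In Slc4a1 and Hemgn only control replicate 2 (215.5 and 115.3) lay above every silica array. None of the 10 passed the threshold, and none was listed at 0. The summed signal of all 10 was 32196, 35816 and 30381 in control against 27143, 28961 and 24961 in silica. Hbb was the brightest in that sum, with means of 23067 in control and 20251 in silica. The part of red cell RNA in the Alox15 difference was not tested. Of the 7 eosinophil markers 4 were measured, with a summed signal of 63.2 to 134 in control and 81.9 to 98.1 in silica, all within low signal. Control replicate 2 also had the highest eosinophil sum.

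**Figure D2:**
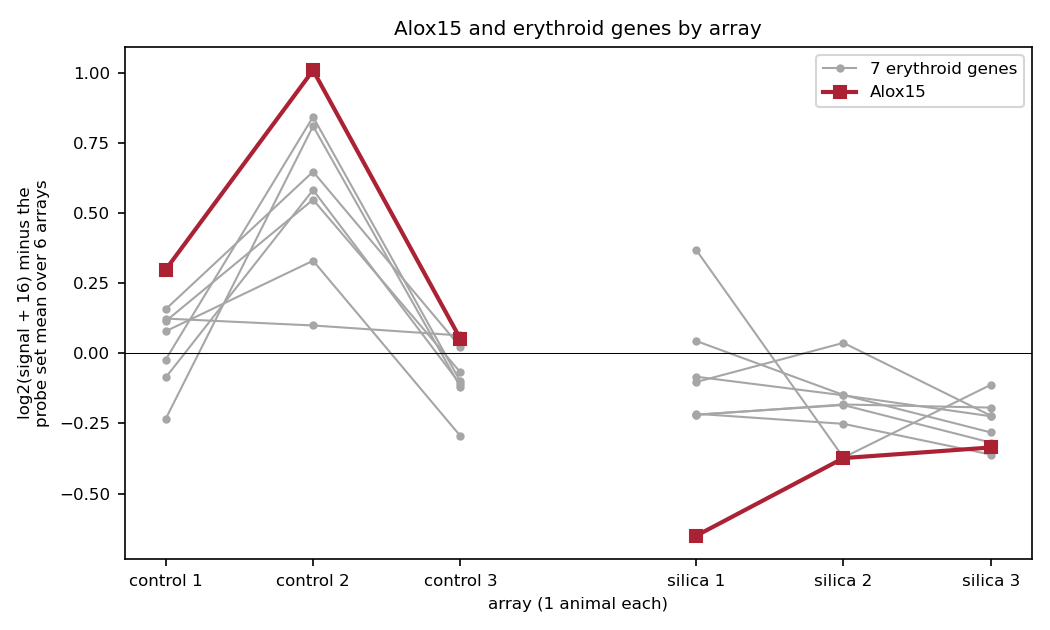
Values of Alox15 (red squares) and of the 7 erythroid genes with a mean log2 value of at least 6 (grey circles) in each array, as log2(signal + 16) minus the probe set's mean over the 6 arrays; lines join the values of a gene within a group and carry no order. Alox15 is highest in control replicate 2, where most of the erythroid genes are also highest, and is below its mean in all silica arrays.

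The cyclooxygenases catalyse the same reaction under different control. Ptgs1 is expressed steadily in platelets, endothelium and macrophages, and Ptgs2 is a textbook early-response gene. The brighter Ptgs1 probe set separated the groups and that of Ptgs2 did not. Ptgs2 minus Ptgs1 nevertheless differed between the groups by only -0.050 (95% interval from -0.93 to 0.83), so no difference in response was shown. The 200 bases before the annotated start of each gene are shown as background, and their part in the values was not tested. They come from RefSeq on the GRCr8 assembly, Ptgs1 from chr3:39981219-39981418 and Ptgs2 from chr13:64713863-64714062, both on the plus strand, and read 5′ to 3′ up to the last base before the start. Capitals mark matches, on either strand, to any of 7 motifs. The TATA box was searched as TATAAA, with TTTAAA as a second form. The others were the GC box with the letters GGGCGG, the E-box with the letters CACGTG, the core of the cyclic AMP response element with the letters TGACG, a C/EBP site form with the letters TTNNGNAA, and the NF-kB motif by its usual consensus.
Ptgs1: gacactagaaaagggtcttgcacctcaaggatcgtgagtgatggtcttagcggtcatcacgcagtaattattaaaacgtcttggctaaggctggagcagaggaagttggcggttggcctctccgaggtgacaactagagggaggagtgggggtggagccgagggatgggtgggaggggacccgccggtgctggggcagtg
Ptgs2: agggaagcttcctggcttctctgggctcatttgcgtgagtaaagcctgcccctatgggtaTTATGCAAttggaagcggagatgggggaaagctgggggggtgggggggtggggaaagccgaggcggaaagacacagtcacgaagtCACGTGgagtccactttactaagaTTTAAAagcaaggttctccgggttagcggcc
The Ptgs2 window held TTTAAA from 31 bases before the start, the E-box from 55 bases and the C/EBP form TTATGCAA from 140 bases, with no overlap between them. The Ptgs1 window held none of the 7, which says only that these letters are not in this window. Of 27457 windows of the same length, 1 per gene, 9.45% held TTTAAA, 4.88% the E-box and 30.1% TTNNGNAA. The other motifs were in 10.5% (TATAAA), 30.4% (GGGCGG), 16.6% (TGACG) and 5.3% (NF-kB). The 2 windows were 58.0% and 55.5% G or C, against a median of 52.5% over all windows. Of the 10 genes, 7 had a window in the table used.

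Ptgs1 had 1009, 857 and 884 in the control lungs and 1326, 1215 and 1168 in the silica lungs. The lowest silica array lay above the highest control array, and within both groups replicate 1 was the highest. The means were 917 ± 81.1 and 1236 ± 81.2, with a log2 fold change of 0.43 ± 0.11 (adjusted p = 0.148, 95% interval from 0.15 to 0.70). With the 3-prime to 5-prime ratio as a covariate the estimate was 0.33 ± 0.14 (adjusted p = 0.524). The silica arrays had the same order in Ptgs1 as in that ratio and the control arrays did not. The part of the ratio in the Ptgs1 difference was not tested. Ptgs1 passed in 2 of 20 alternatives, with the dimmer 50% of probe sets left out (adjusted p = 0.0334) and with an intensity trend and robust spread (adjusted p = 0.0262). Many more probe sets passed in those settings, 1675 of 15521 and 1862 of 31042, against 335 of 31042 in the fit given above. A further, dimmer Ptgs1 probe set had 45.2, 52.1 and 47.9 in control and 58.5, 54.1 and 38.9 in silica. Its groups overlapped, its log2 fold change was 0.035 ± 0.14 (adjusted p = 0.925), and the mean of both probe sets gave 0.23. The 3 named genes nearest to the brighter probe set were Sfta2 (0.0272 log2 units), Tedc1 (0.0426) and Hebp1 (0.0438), with log2 fold changes of 0.41, 0.47 and 0.44. They were picked for this likeness, which fixes that their fold changes lie near that of Ptgs1.

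Ptgs2, the inducible cyclooxygenase, had 47.4, 33.1 and 70.2 in control and 96.8, 46.8 and 66.8 in silica. These signals were low, at percentile 34.3 of all probe sets by mean log2 value, and whether they exceed background was not tested. Silica replicate 1 was the highest array, and the other 2 silica arrays lay within the range of the controls. Its log2 fold change was 0.38 ± 0.29 (adjusted p = 0.551). Its 95% interval ran from -0.32 to 1.07, so neither no change nor a 2-fold rise lay outside it. The spread of replicates was wider here than for Ptgs1, with an SD of 18.7 on a mean of 50.2 in control and of 25.2 on 70.1 in silica. With 1 array left out the estimate ran from 0.16 without silica replicate 1 and 0.18 without control replicate 2 to 0.58 without silica replicate 2 and 0.59 without control replicate 3.

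The terminal prostaglandin synthases had no group difference past the threshold either. Ptges, the inducible microsomal prostaglandin E synthase that works with COX-2, had 119.7, 79.8 and 46.2 in control and 34.4, 101 and 83.9 in silica by its brighter probe set. The ranges of the groups overlapped, and the log2 fold change was -0.15 ± 0.41 (adjusted p = 0.880). Its dimmer probe set had 43.5, 41.0 and 9.50 in control and 39.6, 77.0 and 46.6 in silica, and its log2 fold change was 0.63 ± 0.38 (adjusted p = 0.441). The 2 probe sets thus had opposite signs, and the direction of Ptges is not settled by these arrays. Both were dim, at percentiles 37.8 and 28.1 of all probe sets by mean log2 value.

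Ptgds, the lipocalin-type prostaglandin D synthase, had 153, 175 and 141 in control and 269.6, 200.2 and 166 in silica. Silica replicates 1 and 2 lay above every control and silica replicate 3 lay within their range, with a log2 fold change of 0.38 ± 0.19 (adjusted p = 0.355; 95% interval from -0.071 to 0.83). Without silica replicate 1 the Ptgds estimate was 0.21. With the 3-prime to 5-prime ratio as a covariate it was 0.057 ± 0.15 (adjusted p = 0.932). The silica arrays had the same order in Ptgds as in that ratio and the control arrays did not, and the ratio's part in the difference was not tested. Its nearest genes were Colq, Hspg2 and Stat5b, at 0.0543, 0.0635 and 0.0818 log2 units, with log2 fold changes of 0.33, 0.33 and 0.35. Their choice by likeness fixes that these lie near the Ptgds value. Ptgis, the prostacyclin synthase of vessel walls, had 499.5, 523 and 645 in control and 611, 659.7 and 594 in silica. The groups overlapped, with a log2 fold change of 0.16 ± 0.13 (adjusted p = 0.560; 95% interval from -0.15 to 0.48). It was 0.095 without control replicate 1 and 0.27 without control replicate 3.

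**Figure D3:**
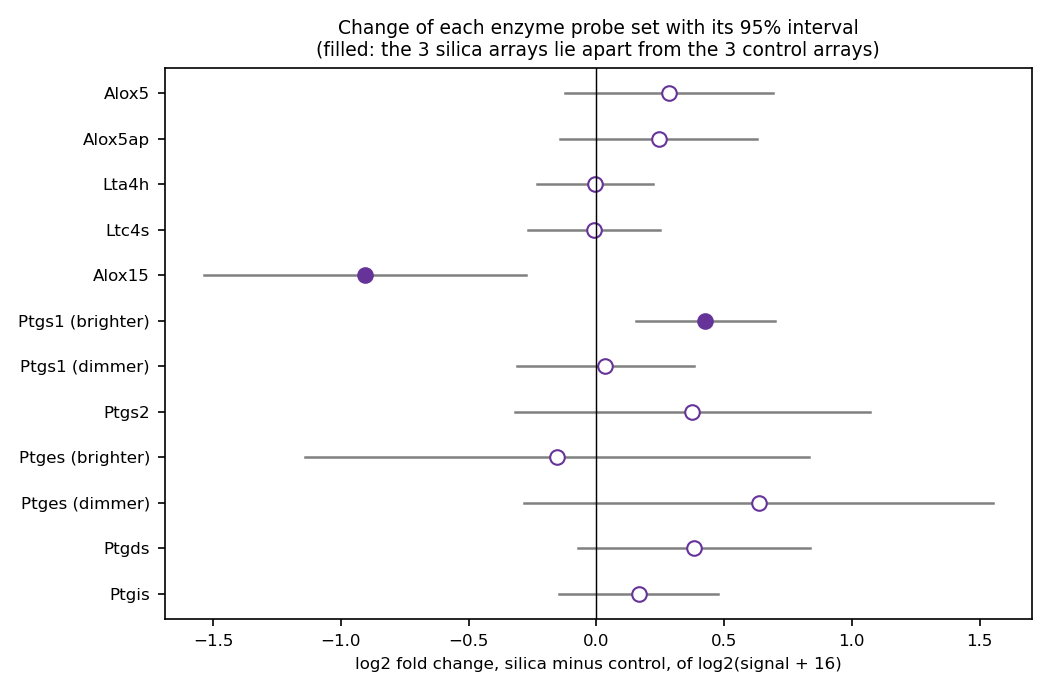
Log2 fold change (silica minus control, horizontal axis) of each of the 12 probe sets with its 95% interval from the moderated fit; filled circles mark probe sets whose 3 silica arrays lie apart from the 3 control arrays. Alox15 at -0.91 and the brighter Ptgs1 probe set at 0.43 are the only intervals that leave out 0, and these intervals are not adjusted for the number of probe sets.

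Differences between enzymes that compete for or share a step were compared within arrays, for 4 pairs of leading probe sets, with a two-sided exact permutation test that cannot give a p under 0.1 with 3 against 3 arrays. Alox15 minus Alox5 differed between the groups by -1.19 ± 0.36 on the log2 scale, and the groups did not overlap (exact permutation p = 0.1, adjusted p = 0.4 over the 4 pairs). Ptgs2 minus Ptgs1 differed between the groups by -0.050 ± 0.32 (exact permutation p = 0.9, adjusted p = 1), with a 95% interval from -0.93 to 0.83. Ltc4s minus Lta4h differed between the groups by -0.0048 ± 0.040 (exact permutation p = 1, adjusted p = 1), with a 95% interval from -0.12 to 0.11. These enzymes of the cysteinyl leukotriene and leukotriene B4 branches kept their ratio within narrow limits in all 6 arrays, between -5.46 and -5.35. Ptges minus Ptgis differed between the groups by -0.32 ± 0.56 (exact permutation p = 0.5, adjusted p = 1).

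Other genes of the pathway were taken as 7 lists, chosen with earlier results of these data known. The lists held 63 genes in all, of which 53 were measured. Of these, 3 rose and 0 fell by limma adjusted p over all probe sets, against 1.67% of named genes called in either direction. At an unadjusted p under 0.05 there were 16 (30.2%), against 19.9% of named genes. With the dimmer 50% of probe sets left out 6 were higher and 3 lower of 31 genes, where 1675 of 15521 probe sets passed. With an intensity trend and robust spread 5 were higher and 3 lower of the 53, where 1862 of 31042 probe sets passed. Hpgd was among the lower genes in both, Aloxe3 in the first and Mgst3 in the second. The 3 that rose by the adjusted p over all probe sets were the secreted phospholipases Pla2g2a and Pla2g1b and the thromboxane synthase gene Tbxas1. Each lost its call whichever of the 6 arrays was left out, and 0 to 12 of all 31042 probe sets passed in those fits. The 3 also did not pass without moderation of the spread, with pseudocount 1, or with the RNA quality covariate. Their estimates with that covariate were 2.48, 0.78 and 0.82, close to the 2.20, 0.75 and 0.83 of the fit without it.

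Upstream of the enzymes, 2 of 13 measured phospholipase A2 genes rose, against 1.67% of named genes called in either direction. The median log2 fold change over the 13 was 0.32, against 0.02 over all named genes. Pla2g2a, a secreted enzyme induced in inflammation, had 312, 336 and 428 in control and 1955, 1094 and 2256 in silica. Every silica array was far above every control array, at a log2 fold change of 2.20 ± 0.29 (adjusted p = 0.0411). Pla2g1b, the pancreatic-type secreted enzyme, had 2286, 2188 and 2552 in control and 4017, 3926 and 3905 in silica, and its log2 fold change was 0.75 ± 0.10 (adjusted p = 0.0422). The cytosolic enzyme Pla2g4a, known as the main supplier of arachidonic acid for eicosanoids, had 439, 372 and 388 in control and 543, 500.4 and 551 in silica. Its groups did not overlap, but it did not pass (log2 fold change 0.40 ± 0.11, adjusted p = 0.154); it lies outside the naming rule and was chosen after its values were seen.

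Among 7 measured other prostanoid synthases 1 rose, against 1.67% of named genes called in either direction. The list median was 0.42, against 0.02 over all named genes. Tbxas1, which turns the product of the cyclooxygenases into thromboxane A2, had 437, 476 and 445 in control and 900, 702 and 860.3 in silica. Its log2 fold change was 0.83 ± 0.13 (adjusted p = 0.0487), and with array medians centred it did not pass (adjusted p = 0.0538). Platelet markers, 6 of 7 measured, overlapped between the groups, with a summed signal of 2727 to 3233 in control and 2769 to 3339 in silica. Macrophage markers, 8 of 11 measured, lay apart as a sum, at 17445 to 19333 in control and 23177 to 24558 in silica. Of the 8, 4 had groups apart, 7 were estimated higher and 1, Cd163, lower (-0.45). Lpl was the brightest in the sum, with means of 7468.5 in control and 9039 in silica. The part of these markers in the result was not tested. Hpgds, the hematopoietic prostaglandin D synthase of mast cells and T helper cells, had 26.1, 39.6 and 28.4 in control and 79.9, 73.6 and 66.1 in silica. It lay just outside the threshold (log2 fold change 0.92 ± 0.14, adjusted p = 0.0502) and passed in 3 of 19 alternatives. Those were an intensity trend and robust spread, pseudocount 64 and probe set means. There 1862 of 31042 probe sets, 919 of 31042 probe sets and 560 of 14217 genes passed. The control signals of Hpgds were low, in a range in which array signals carry little information. The Hpgds estimate was 0.53 with pseudocount 64 and 1.2 with pseudocount 1. Mast cell and basophil markers, 10 of 11 measured, had a summed signal of 1597 to 1978 in control and 2701 to 3472 in silica. Of the 10, 8 were estimated higher in silica and 2 lower. Groups lay apart in 8 of the 10, among them Kit, which was lower in silica (log2 fold change -0.63). The part of these markers in the Hpgds difference was not tested.

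The list of eicosanoid breakdown and transport, which also holds the annexin gene Anxa1, had 11 of 15 measured genes with estimates below 0, against 46.3% of all named genes. Its median was -0.12, against 0.02 over all named genes, and none passed. Hpgd, the dehydrogenase that inactivates prostaglandin E2 and other prostaglandins in lung, had 1416, 1345 and 1471 in control and 930, 588 and 905 in silica. All silica arrays lay below all control arrays, with a log2 fold change of -0.82 ± 0.19 (adjusted p = 0.122). A second Hpgd probe set had 1089, 896 and 1056 in control and 455, 413 and 697 in silica, and its log2 fold change was -0.97 ± 0.21 (adjusted p = 0.106), so both probe sets of this gene had the same sign and separated the groups. The leading probe set passed with the dimmer 50% of probe sets left out (adjusted p = 0.0243) and with an intensity trend and robust spread (adjusted p = 0.0142). In those settings 1675 of 15521 and 1862 of 31042 probe sets passed. Alveolar epithelium markers, all 9 of them measured, had a summed signal of 137880 to 144500 in control and 121810 to 138860 in silica. Of the 9, 7 were estimated lower and 2 higher, and 6 had groups apart. The 6 were Ager, Aqp5, Hopx, Pdpn and Sftpb, lower in silica, and Abca3, higher. The part of these markers in the Hpgd difference was not tested. Abcc4, an exporter of prostaglandins, had 428, 465 and 390.3 in control and 577, 574 and 580.1 in silica. Its groups did not overlap, and its log2 fold change was 0.42 ± 0.10 (adjusted p = 0.133).

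The remaining lists had no gene past the threshold. The 4 measured leukotriene receptor genes had estimates from 0.18 to 0.54 and signals between 1.3 and 57.7 in every array, a range in which array signals carry little information. The 2 with the smallest p were the leukotriene B4 receptor genes Ltb4r (log2 fold change 0.54 ± 0.31, adjusted p = 0.430) and Ltb4r2 (0.18 ± 0.13, adjusted p = 0.514), and with 1 array left out they ran from 0.25 to 0.87 and from 0.11 to 0.27. The ends were without silica replicates 3 and 1 for Ltb4r, and without silica replicate 2 and control replicate 2 for Ltb4r2. Of the 8 prostanoid receptor genes 4 were estimated above 0 and 4 below, with the thromboxane receptor gene Tbxa2r at -0.38 ± 0.19 (adjusted p = 0.356) and the prostaglandin F receptor gene Ptgfr at 0.65 ± 0.39 (adjusted p = 0.446). Tbxa2r came closest to 0 without silica replicate 2, at -0.24, and Ptgfr ran from 0.26 without control replicate 2 to 0.99 without control replicate 3. Of the 3 measured other lipoxygenases, Aloxe3 had -0.43 ± 0.12 (adjusted p = 0.157) and Alox12e 0.18 ± 0.15 (adjusted p = 0.584), which was 0.071 without silica replicate 1 and 0.28 without control replicate 3. Mgst1, Mgst2 and Mgst3 belong with Alox5ap, Ltc4s and Ptges to the MAPEG family of membrane proteins, most of which act on glutathione. Mgst3 had -0.32 ± 0.099 (adjusted p = 0.190) and Mgst1 -0.16 ± 0.10 (adjusted p = 0.477).

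**Figure D4:**
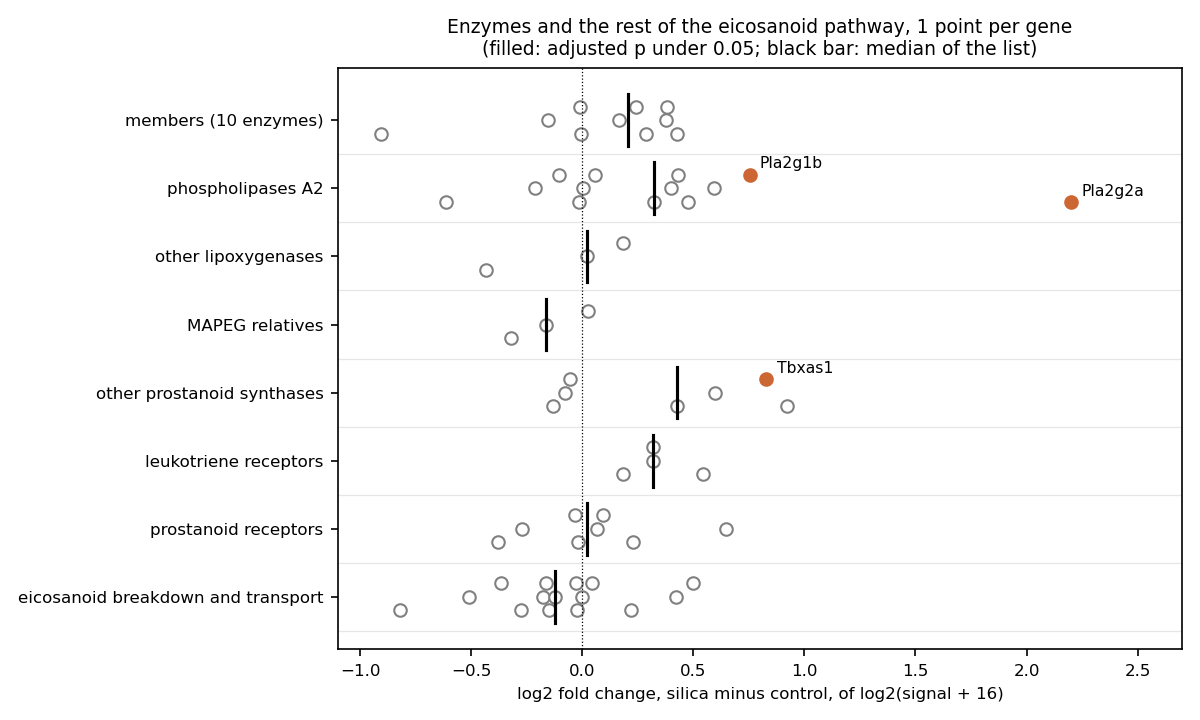
Log2 fold change (silica minus control, horizontal axis) of the 10 enzymes and of the 53 measured genes of 7 pathway lists, 1 circle per gene by its leading probe set, with filled circles for an adjusted p under 0.05 and a black bar at each list's median. Only Pla2g2a, Pla2g1b and Tbxas1 are filled, all to the right of 0.

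Summed markers of some cells that make eicosanoids also lay apart between the groups. Summed neutrophil markers, 7 of 10 measured, ran from 6538 to 8355 in control and from 11019 to 17708 in silica. All 7 were estimated higher, and 4 had groups apart. S100a9 was the brightest in that sum, with means of 4399 in control and 8760 in silica. Endothelium markers, 7 of 8 measured, ran from 40470 to 41616 in control and from 33773 to 39237 in silica. Of these, 6 were estimated lower and 1 higher, and 2 had groups apart. No marker of these lists was listed at 0, and the alveolar and airway markers of the labelled tissue gave signal in all arrays. The part of cell numbers in the enzymes' values was not tested.

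**Figure D5:**
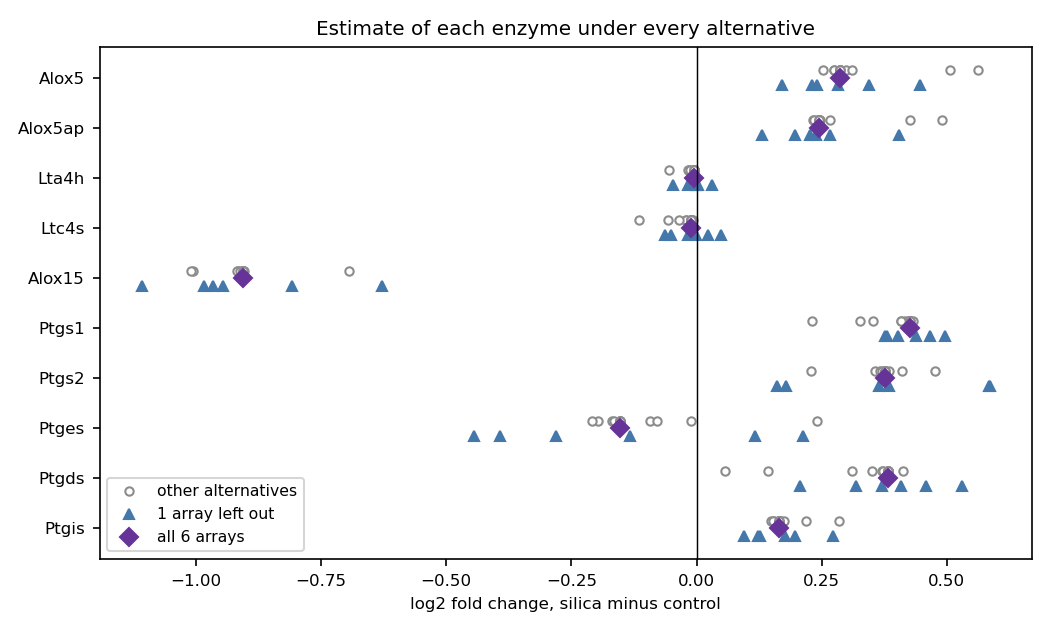
Log2 fold change (silica minus control, horizontal axis) of each enzyme's leading probe set with all 6 arrays (diamonds), with 1 array left out (triangles) and under the other alternatives (open circles). Alox15 stays below 0 and Alox5, Alox5ap, Ptgs1, Ptgs2, Ptgds and Ptgis stay above 0 throughout, while Lta4h, Ltc4s and Ptges lie on both sides of 0. Alternatives that change only the spread estimate, the threshold, the replicate term or which probe sets are kept repeat the value of the diamond. So does averaging for a gene with a single probe set.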

How the data were processed

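The deposited table gives a linear signal intensity for each probe set in each of 3 control and 3 silica lungs. The sources used here do not state the software with which the authors summarised and scaled the probes. The array means after trimming 2% at each end were all close to 500, so 1 factor per array had been applied. Of 31099 probe sets, 57 control probe sets were left out. Gene names came from the platform annotation, with 20758 of 20826 single-gene probe sets updated by identifier to RefSeq. 436 probe sets with several genes and 9780 not listed gave no name. Silica was compared with control on log2(signal + 16) by limma 3.58.1 in R 4.3.3 (lmFit, eBayes, group as the only term, 4 residual and 2.18 prior degrees of freedom), with Benjamini-Hochberg adjustment over 31042 probe sets. Array medians lay between 7.38 and 7.42, so nothing further was normalized. The number of arrays limits the precision, and nothing beyond 1 array per animal is known of the samples' independence. The fit was tested on simulated data. Members and lists were chosen with earlier results of these data known. The text names all members, every pathway gene past the threshold, the 2 of smallest p in each list and, for the 3 members of smallest p, the 3 nearest genes. Marker lists covered macrophages, neutrophils, mast cells, eosinophils, platelets, endothelium, fibroblasts and smooth muscle (14037 to 19290 summed signal in control, 12579 to 15024 in silica), alveolar and airway epithelium (29046 to 31664 and 25349 to 32285), cardiac muscle (317 to 3594 and 770 to 3019) and mesothelium (2468 to 2611 and 2174 to 2733). Alternatives were other normalizations, pseudocounts of 1 and 64, filters, spread estimates, array weights, thresholds, a replicate block, an RNA quality covariate, probe set means and arrays left out.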

Additional observations from a re-analysis of the deposited data

How the results depend on the processing

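With all 6 arrays 335 probe sets, 0 of the 10 enzymes and 3 of the pathway genes passed. The enzyme count stayed 0 except with the dimmer 50% of probe sets left out and with an intensity trend and robust spread, each 1 (Ptgs1). In those 2 settings 1675 (1044 higher, 631 lower) and 1862 (1141 and 721) probe sets and 9 (6 and 3) and 8 (5 and 3) pathway genes passed. The first of them held only 15521 probe sets, 7 of the enzymes and 31 pathway genes. Alox15, Ptgs2 and Ptges gave no value with the dimmer 50% left out.

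The count over all probe sets was 40 without moderation, 43 with pseudocount 1, 919 with pseudocount 64, 560 with a gene's probe sets averaged (over 14217 genes), 6 at an adjusted p under 0.01, 183 at 2-fold or more, and 0 with the RNA quality covariate or without control replicate 3 and silica replicate 1 together. With 1 array left out it ran from 0 to 12. The pathway count was 0 without moderation, with pseudocount 1, at an adjusted p under 0.01, with the covariate, without those 2 arrays and without any 1 array, and 1 at 2-fold or more. Under the replicate block, 1 probe set and 0 pathway genes passed. Same-numbered deviations correlated at 0.0924, 0.035 and 0.0875, so the samples are not treated as paired, although each array correlated best with its own number. The causes of these moves were not tested.

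Estimates near 0 changed sign. With 1 array left out Lta4h ran from -0.047 to 0.031, Ltc4s from -0.063 to 0.048 and Ptges from -0.45 to 0.21, and Ptges was 0.24 by the mean of its probe sets. Left-out arrays moved Ptgs2 minus Ptgs1 from -0.21 to 0.18, Ltc4s minus Lta4h from -0.034 to 0.024 and Ptges minus Ptgis from -0.72 to 0.036. Ptgs2 minus Ptgs1 was 0.045 with pseudocount 1 and 0.15 by probe set means, and Ptges minus Ptgis 0.075 by probe set means. The other 7 enzymes kept their sign in every alternative. Those alternatives that change only the spread estimate, the threshold, the replicate term or which probe sets are kept cannot move an estimate. Nor can averaging for a gene with a single probe set, so the sign was fixed in all of these.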
